A study of Homo sapiens with 18 samples.

Results

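The annexins are a family of proteins that bind acidic phospholipids of cell membranes when calcium is present. The 10 members described here (ANXA1, ANXA2, ANXA3, ANXA4, ANXA5, ANXA6, ANXA7, ANXA8, ANXA10 and ANXA11) were taken by gene symbol from the 58302 genes of the expression table. They were chosen with earlier results of these data known. Of the 10, 7 passed the filter on low expression that left 12982 genes for testing. The cells were PANC-1, a line from a human pancreatic ductal carcinoma, that carried a lentiviral control shRNA (shCtrl) or a lentiviral shRNA against NAT10 (shNAT10) as stable lines. NAT10 is the acetyltransferase that writes N4-acetylcytidine (ac4C) on RNA. RNA-seq had 3 libraries per group, and acRIP-seq, in which RNA fragments are pulled down with an antibody against ac4C, had 3 IP and 3 input libraries per group and 1 list of peaks per group. Which of the study's shRNAs against NAT10 the knockdown line carried was not given in the sources used here, and the labels did not say whether replicates were separate cultures, so p-values measure only the spread between these libraries, which may be technical.

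Each annexin has a conserved core of repeats in which loops hold calcium ions against the membrane surface, and a variable head that binds partners such as the small S100 proteins. ANXA6 carries a doubled core, and ANXA7 and ANXA11 have long heads. Annexins take part in vesicle traffic, in exocytosis and in the sealing of torn plasma membrane, ANXA1 also dampens inflammation through formyl peptide receptors, ANXA2 with S100A10 recruits plasminogen activator to the cell surface, and ANXA5 is widely used to stain dying cells. The questions asked of these data were whether the RNA level of any annexin differed after NAT10 knockdown, and where on their transcripts the acRIP peaks lay in either line.

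Several acRIP peaks on annexins lay over the code for the calcium-binding loop, so these sequences are shown first. The loop was searched in the reading frame, on the sense strand, as GGNNNNGGNACNGAN, which is 15 bases that code for glycine, any residue, glycine, threonine and an acidic residue. The motif occurred 18 times in the coding sequences of 9 of the 10 annexins, from 1 to 4 times per gene, and not in ANXA8. Loops with other residues at these places are missed by this search, so the matches are not a count of all loops. Of 19684 coding genes in GENCODE v29, 1.58% held at least 1 match in frame and 4 held at least 3, among them ANXA4 with 3 and ANXA6 with 4. For comparison between members, 45 bases around the motif are given for 6 sites, read 5′ to 3′ from GENCODE v29 transcripts (GRCh38), with the motif in capitals. Of the 18 such windows 17 crossed a splice junction, so the positions given enclose an intron.
ANXA1 (chr9:73160362-73160832, plus strand): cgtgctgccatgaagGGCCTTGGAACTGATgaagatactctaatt
ANXA2 (chr15:60357207-60360955, minus strand): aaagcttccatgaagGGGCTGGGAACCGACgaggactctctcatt
ANXA4 (chr2:69788120-69804555, plus strand): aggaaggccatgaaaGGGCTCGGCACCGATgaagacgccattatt
ANXA5 site 1 (chr4:121684749-121686309, minus strand): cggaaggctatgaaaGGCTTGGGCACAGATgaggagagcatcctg
ANXA5 site 2 (chr4:121669695-121669968, minus strand): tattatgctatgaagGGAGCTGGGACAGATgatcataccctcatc
ANXA11 site 1 (chr10:80166962-80167247, minus strand): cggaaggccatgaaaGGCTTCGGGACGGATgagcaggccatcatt

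The ANXA1 and ANXA11 sites lay in a peak of both lines, the ANXA4 site in a shCtrl peak only, both ANXA5 sites in shNAT10 peaks only, and the ANXA2 site in no peak. Of all 18 sites, 7 lay wholly in a shCtrl peak and 9 in a shNAT10 peak, 5 of them in both, and 7 lay in neither. On ANXA1, ANXA6 and ANXA11 the peaks of either line covered 44.7% to 76.6% of the coding sequence. On ANXA5 they covered 5.94% in shCtrl and 99.3% in shNAT10 cells. The motif was chosen after the peaks were seen, and whether loop sites lay in peaks more often than other coding sequence was not tested. The following 3 peaks lay entirely in coding sequence and were short enough to show whole, again with the loop motif in capitals. The ANXA6 and ANXA11 peaks were listed in shCtrl cells and were fully covered by a longer shNAT10 peak, and the ANXA7 peak was listed in shNAT10 cells alone.
ANXA6, exons 17 to 19, 181 bases (chr5:151117829-151122227, minus strand): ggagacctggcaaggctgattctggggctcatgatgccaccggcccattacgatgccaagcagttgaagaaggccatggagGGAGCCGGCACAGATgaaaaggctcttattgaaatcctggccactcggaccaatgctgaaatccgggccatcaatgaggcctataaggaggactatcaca
ANXA7, exons 7 to 9, 210 bases (chr10:73383595-73388330, minus strand): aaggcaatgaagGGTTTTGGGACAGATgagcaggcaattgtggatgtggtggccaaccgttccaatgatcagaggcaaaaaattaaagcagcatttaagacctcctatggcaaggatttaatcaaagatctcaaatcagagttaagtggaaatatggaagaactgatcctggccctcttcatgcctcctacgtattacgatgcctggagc
ANXA11, exons 9 to 11, 181 bases (chr10:80163595-80166154, minus strand): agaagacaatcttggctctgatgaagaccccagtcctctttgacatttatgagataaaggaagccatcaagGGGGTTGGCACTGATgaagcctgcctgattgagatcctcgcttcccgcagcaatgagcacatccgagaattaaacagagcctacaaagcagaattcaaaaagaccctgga

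Each of these 3 peaks held 1 loop motif in frame. Among the listed peaks of 180 to 210 bases found whole on an annotated transcript, the motif occurred in any frame in 0.491% of 4888 shCtrl peaks and in 0.497% of 4631 shNAT10 peaks. The motif is a mark of the family, so no test of this difference was made. A match describes the letters under the peak and does not place an acetylated base.

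The RNA-seq libraries were scaled by 15831720 to 23521762 reads. NAT10, the targeted gene, was at 31.6, 27.7 and 28.6 FPKM in the shCtrl libraries and at 7.92, 8.43 and 7.90 FPKM in the shNAT10 libraries, a log2 fold change of -1.84 (SE 0.076, limma adjusted p = 3.85e-05). shCtrl replicate 2 stood apart, with a median absolute log2 difference of 0.25 to the mean of the other two shCtrl libraries, against 0.10 to 0.19 for those and 0.074 to 0.090 for the shNAT10 libraries. The ductal keratins KRT7, KRT8, KRT18 and KRT19 were all present, with a summed level of 2783 to 3744 FPKM in shCtrl and 1470 to 1650 FPKM in shNAT10 cells, all 4 called lower. Of the other markers reported, COL1A1 at 19.2 to 31.1 FPKM (group means) and CD14 at 1.46 to 2.53 FPKM (group means), both called lower, were the only genes to reach 1 FPKM, while endothelial markers summed to at most 0.117 FPKM and acinar markers to at most 0.0557 FPKM. The leukocyte markers PTPRC and CD3E, and DCN, LUM and PDGFRB of fibroblasts, were under 1 FPKM in every library. The part of these differences in the annexin values was not tested, and in bulk RNA fewer cells with a transcript and less RNA per cell cannot be told apart.

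Of the 7 annexins tested, ANXA7 and ANXA1 were higher and ANXA5 was lower in shNAT10 cells, and ANXA2, ANXA4, ANXA6 and ANXA11 did not pass the test. Changes were called with limma on log2(FPKM + 0.1) at a Benjamini-Hochberg adjusted p under 0.05 over all 12982 tested genes. Of these genes 20.8% were called higher and 21.2% lower, so 2 of 7 higher and 1 of 7 lower were near the share among all genes. The median log2 fold change was 0.13 over the 7 annexins and -0.01 over all tested genes, and the median absolute log2 fold change was 0.18 and 0.31. No annexin was called with a log2 fold change beyond 1, as 6.48% of the tested genes were. The ranges of the groups did not overlap for 4 of the 7 (ANXA1, ANXA4, ANXA5 and ANXA7), against 56.5% of the tested genes.

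ANXA7, which was named synexin for the fusion of secretory vesicles, had the largest change among the 7 tested members. Its level was 45.7, 50.5 and 48.9 FPKM in the shCtrl libraries and 76.7, 77.3 and 73.5 FPKM in the shNAT10 libraries. Every shNAT10 library lay above every shCtrl library, and the gap between the groups was several times the spread within either. The fold change was 1.57, or 0.65 on the log2 scale (SE 0.065, 95% CI 0.49 to 0.80, limma adjusted p = 0.00048). A two-sided exact permutation test over the 6 libraries returned p = 0.1, which 3 libraries against 3 cannot go below.

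ANXA1, the inhibitor of inflammatory signalling known as lipocortin, stood at 44.5, 51.0 and 46.5 FPKM in shCtrl and at 58.4, 62.5 and 63.3 FPKM in shNAT10 cells. The groups did not overlap, with the highest shCtrl value in replicate 2. ANXA1 was 1.30-fold higher after knockdown (log2 fold change 0.38, SE 0.075, 95% CI 0.20 to 0.55, limma adjusted p = 0.00745), with an exact permutation p = 0.1.

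ANXA5, which forms lattices on phosphatidylserine at membrane surfaces, went the other way. It was at 242.0, 277 and 256 FPKM in shCtrl and at 204, 189.9 and 197 FPKM in shNAT10 cells. All 3 shNAT10 libraries were below all 3 shCtrl libraries. The mean in shNAT10 cells was 0.762 times that in shCtrl cells by the fit (log2 fold change -0.39, SE 0.073, 95% CI -0.56 to -0.22, limma adjusted p = 0.00545), and the exact permutation test gave p = 0.1. ANXA5 made up 20.9% to 22.1% of the summed annexin FPKM in shCtrl libraries and 17.3% to 18.3% in shNAT10 libraries.

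ANXA2, the partner of S100A10, was the most abundant member in every library. It was at 703, 872 and 761 FPKM in shCtrl and at 713, 702 and 675 FPKM in shNAT10 cells. The groups overlapped because shCtrl replicate 1 lay among the shNAT10 values, and shCtrl replicate 2 was the highest. The log2 fold change was -0.15 (95% CI -0.37 to 0.06, limma adjusted p = 0.206), and it turned to 0.10 with quantile normalization (adjusted p = 0.0608), so no direction is given. The transcript shared 43.8% of its 31-base windows with other genes, 43.0% with the processed pseudogene ANXA2P2, so reads can be split between them. ANXA2P2 itself was at 128.8, 152 and 138 FPKM in shCtrl and at 123, 134 and 119 FPKM in shNAT10 cells (log2 fold change -0.16, limma adjusted p = 0.173). The further ANXA2 pseudogenes ANXA2P1 and ANXA2P3 were listed at no more than 1.2 and 0.049 FPKM.

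ANXA4, a binder of membranes in secretory epithelia, was at 19.96, 23.1 and 22.7 FPKM in shCtrl and at 23.7, 24.2 and 23.9 FPKM in shNAT10 cells. These groups did not overlap, but shCtrl replicates 2 and 3 came close to the shNAT10 values. The log2 fold change of 0.13 (95% CI -0.05 to 0.31) did not pass the test (limma adjusted p = 0.216), although it did after rescaling to TPM (log2 fold change 0.24, adjusted p = 0.0235).

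ANXA6, the member with the doubled core, was at 15.8, 19.3 and 16.3 FPKM in shCtrl and at 19.2, 19.6 and 18.2 FPKM in shNAT10 cells. Only shCtrl replicate 2 reached the shNAT10 range. The log2 fold change was 0.15 (95% CI -0.06 to 0.37, limma adjusted p = 0.221). Without shCtrl replicate 2 it was 0.24 (limma adjusted p = 0.010), and with TPM it was 0.26 (adjusted p = 0.0223), so whether ANXA6 was called turned on that library and on the scaling.

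ANXA11, which tethers RNA granules to lysosomes, was at 24.8, 31.9 and 25.7 FPKM in shCtrl and at 25.6, 23.9 and 23.1 FPKM in shNAT10 cells. The groups overlapped, and shCtrl replicate 2 was again the highest. The log2 fold change was -0.18 (95% CI -0.43 to 0.08, limma adjusted p = 0.228), and -0.06 without shCtrl replicate 2 (adjusted p = 0.410).

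The other members were near or at 0. ANXA3 was at 0.767, 0.556 and 0.594 FPKM in shCtrl and at 0.646, 0.737 and 0.502 FPKM in shNAT10 cells, from 26 to 42 reads per library, and the groups overlapped. ANXA8 was at 0.186, 0.227 and 0.215 FPKM in shCtrl and at 0.116, 0 and 0.104 FPKM in shNAT10 cells, which came from 7, 10 and 11 reads against 4, 0 and 4 reads. The ANXA8 values did not overlap, but the gene stood under the filter and 89.6% of its 31-base windows were shared with its near-identical copy ANXA8L1, which was at 0.374 to 0.723 FPKM with overlapping groups. ANXA10 had 0 reads in all 6 libraries, which allows up to 3 reads in each. Of the annexins outside the 10 members, ANXA13 was also listed at 0, and ANXA9 was at 2.12, 2.27 and 1.96 FPKM in shCtrl and at 1.38, 0.789 and 1.05 FPKM in shNAT10 cells. ANXA9 was called lower (log2 fold change -0.94, SE 0.21, limma adjusted p = 0.0124) on 28 to 84 reads per library.

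**Figure D1:**
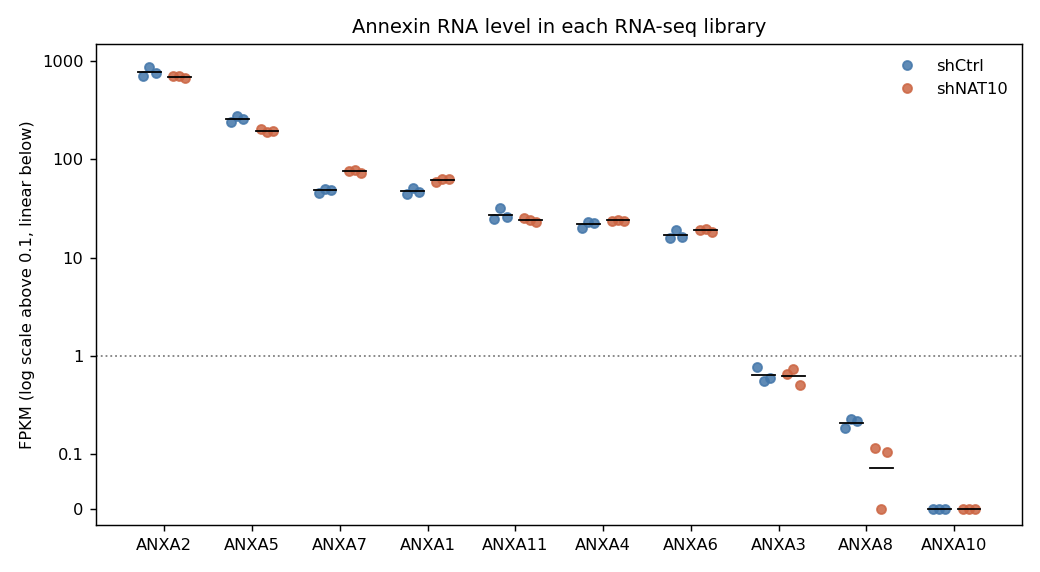
FPKM of the 10 annexins in each of the 6 RNA-seq libraries, on a vertical axis that is logarithmic above 0.1 and linear below, with shCtrl in blue, shNAT10 in orange, a bar at each group mean (n = 3) and a dotted line at 1 FPKM. ANXA2 lies at 675 to 872 FPKM, ANXA7 and ANXA1 are higher and ANXA5 is lower in the shNAT10 libraries, and ANXA3, ANXA8 and ANXA10 lie below 1 FPKM.

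FPKM are values per gene length, so the levels of different annexins could be set in order, given the length used. For ANXA1, ANXA5, ANXA6 and ANXA11 that length was that of the principal transcript. It was longer for ANXA2 (3528 against 1676 bases), ANXA4 (4418 against 2799 bases) and ANXA7 (2452 against 2174 bases). Isoform use was not measured, so the order of members with close levels may depend on it. In shCtrl cells the mean level fell from ANXA2 (779 FPKM) to ANXA5 (259 FPKM), ANXA7 (48.4 FPKM), ANXA1 (47.3 FPKM), ANXA11 (27.5 FPKM), ANXA4 (21.9 FPKM), ANXA6 (17.1 FPKM), ANXA3 (0.639 FPKM), ANXA8 (0.209 FPKM) and ANXA10 (0 FPKM). The libraries of neighbours in this order did not overlap, except for ANXA7 and ANXA1. In shNAT10 cells the order of the means was the same, but ANXA7 (75.8 FPKM) now stood clear of ANXA1 (61.4 FPKM), while ANXA11 (24.2 FPKM) and ANXA4 (23.9 FPKM) overlapped, as did ANXA8 and ANXA10. The 10 annexins together made up 0.315% to 0.339% of all FPKM in shCtrl and 0.318% to 0.330% in shNAT10 libraries. ANXA2 alone gave 62.8% to 65.8% of the annexin sum in any library.

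Of 13 partners 8 were tested, 4 were called lower and none higher by limma (by voom likewise none), with a median log2 fold change of -0.27, and the 4 called were all S100 proteins, small calcium sensors that bind annexin heads. Among all tested genes 21.2% were called lower and 20.8% higher, and the difference from that share was not tested. Of the tested partners 0 were called higher even at an unadjusted p under 0.05. The 4 S100 genes lie between bases 151982915 and 153550136 of chromosome 1, and each was highest in shCtrl replicate 2. They may therefore not be independent of one another, which was not tested.

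S100A10, the light chain that joins ANXA2 into a tetramer, was at 409, 595 and 452 FPKM in shCtrl and at 351, 352 and 346 FPKM in shNAT10 cells. The groups did not overlap, and the shNAT10 libraries lay close together. Its log2 fold change was -0.45 (SE 0.13, limma adjusted p = 0.031), but the adjusted p rose to 0.0627 without shCtrl replicate 3 and to between 0.0872 and 0.0936 without any 1 of the shNAT10 libraries.

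S100A11, which binds ANXA1, was at 321, 472 and 364 FPKM in shCtrl and at 242, 256 and 249.8 FPKM in shNAT10 cells (log2 fold change -0.61, SE 0.14, limma adjusted p = 0.0114). S100A6, a partner of ANXA2 and ANXA11, was at 1024, 1610 and 1201 FPKM in shCtrl and at 829, 833 and 784 FPKM in shNAT10 cells (log2 fold change -0.62, SE 0.16, limma adjusted p = 0.0175). Both had their highest value in shCtrl replicate 2 and no overlap between groups, and the call of S100A6 was lost without any 1 of the shNAT10 libraries (adjusted p 0.0538 to 0.065). S100A4, a partner of ANXA2 known from metastatic cells, was at 163, 267 and 188 FPKM in shCtrl and at 114, 103 and 105 FPKM in shNAT10 cells, the largest fall of the list (log2 fold change -0.91, SE 0.17, limma adjusted p = 0.00559). All 4 falls were smaller but still called without shCtrl replicate 2. The log2 fold changes were then -0.30 for S100A10, -0.45 for S100A11, -0.44 for S100A6 and -0.71 for S100A4.

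Of the partners not called, SRI (sorcin, which binds ANXA7) had a log2 fold change of -0.05, PDCD6 (which binds ANXA7 and ANXA11) of -0.09, ANXA2R of 0.03 and AHNAK of 0.40. AHNAK, the large scaffold bound by the ANXA2 and S100A10 tetramer, ranged from 139.6 to 311 FPKM among the shCtrl libraries, with its lowest value in replicate 2, and was called higher without shCtrl replicate 1 (log2 fold change 0.67, limma adjusted p = 0.0312). The formyl peptide receptors FPR1, FPR2 and FPR3, the phospholipase PLA2G4A and the plasminogen activator PLAT were all under 1 FPKM and were not tested.

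Among genes of plasma membrane repair, 17 of 21 were tested, with 4 called higher, 3 called lower and 10 not called, and a median log2 fold change of -0.04. These counts were near the 20.8% higher and 21.2% lower among all tested genes. The 3 largest rises among the called genes were in CHMP3, a subunit of the ESCRT machinery that pinches off damaged membrane (log2 fold change 0.79, limma adjusted p = 0.00024), CAVIN1, a coat protein of caveolae (0.62, adjusted p = 0.0016), and TSG101, an early ESCRT subunit (0.23, adjusted p = 0.0481). The 3 falls were in SYT7, the calcium sensor of lysosome exocytosis (-0.94, limma adjusted p = 0.0043), SMPD1, the acid sphingomyelinase that lysosomes release at wounds (-0.51, adjusted p = 0.0204), and EHD1, an ATPase of membrane recycling (-0.34, adjusted p = 0.0274). The fourth called rise, EHD2 at the neck of caveolae, had a log2 fold change of 0.19 (limma adjusted p = 0.0373). MYOF, the ferlin with the highest level here, did not pass the test (-0.15, limma adjusted p = 0.432), nor did VPS4A, the ATPase that disassembles ESCRT filaments (0.32, adjusted p = 0.0642), and the ferlins DYSF and OTOF were under 1 FPKM in every library. Only 2 of the rises (CHMP3 and CAVIN1) were called without any 1 of the shNAT10 libraries, and only SYT7 of the falls.

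**Figure D2:**
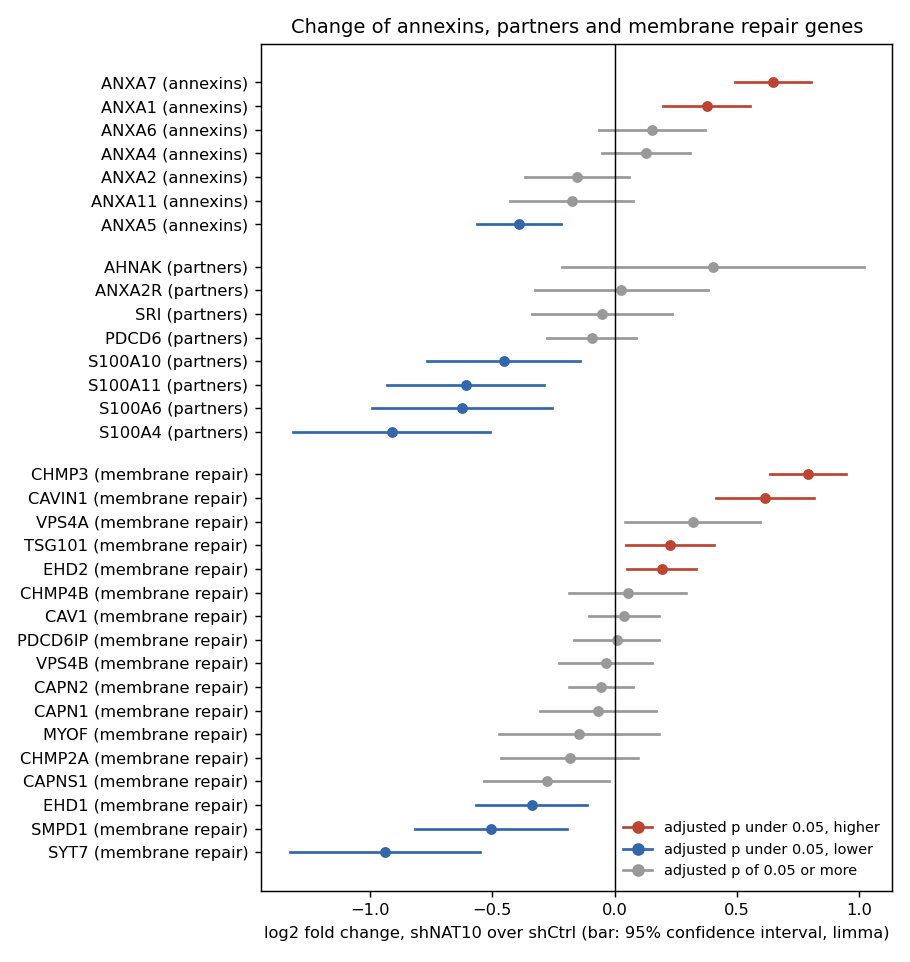
Log2 fold change of shNAT10 over shCtrl cells (horizontal axis) with the 95% confidence interval from limma for the tested annexins, partners and membrane repair genes, in red where called higher, blue where called lower and grey where not called. ANXA7 (0.65) and ANXA1 (0.38) lie to the right of 0 and ANXA5 (-0.39) to the left, and the 4 S100 proteins all lie to the left.

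The acRIP peak lists held 18 annexin peaks in shCtrl cells, on 6 of the 10 genes, and 16 in shNAT10 cells, on 5 of the 10. The shCtrl list covered 49.6% of the 12982 tested genes and the shNAT10 list 47.7%. Shares of tested genes leave out ANXA3, ANXA8 and ANXA10, which the counts of 10 include. Each line had a single list for its 3 IP and 3 input libraries, so there was no replicate to test against, and the depth behind a peak is unknown. The fold enrichment of IP over input was given by the peak caller within each list. Where values of both lines are printed below, they describe each list and do not measure a difference between the lines. ANXA1, ANXA5, ANXA6 and ANXA11 had a peak in both lines, ANXA4 and ANXA8 in shCtrl cells alone and ANXA7 in shNAT10 cells alone, where 15.8% and 13.9% of the tested genes had a peak in shCtrl or shNAT10 cells alone. ANXA2, ANXA3 and ANXA10 had none in either list. Of 464 tested genes with a mean level of at least 100 FPKM, as ANXA2, 25.2% also had no peak in either list. ANXA2 shared 43.8% of its 31-base windows with other genes, and the part of this in its missing peak was not tested.

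Of the 18 shCtrl peaks 9 overlapped a shNAT10 peak by at least 1 base, and of the 16 shNAT10 peaks 10 overlapped a shCtrl peak, against 25.5% and 27.3% of the peaks of all tested genes. With a reciprocal overlap of at least 50% the number of shCtrl peaks fell to 4, and the share over all tested genes was not computed at that rule. ANXA11 alone held 5 of the shCtrl and 7 of the shNAT10 peaks. The difference of the annexin peaks from the shares over all tested genes was not tested. A peak of 151 bases on ANXA11 had the same bounds in both lists. By their midpoint on the principal transcript of each gene, 13 of the shCtrl peaks lay in the coding sequence, 3 in the 3′ UTR, 1 in the 5′ UTR and 1 on no exon of that transcript, and 12 and 4 of the shNAT10 peaks lay in the coding sequence and the 3′ UTR. The peaks followed exons, with all 71 inner block starts at annotated exon starts, but 1258 bases of the shCtrl peaks and 1046 bases of the shNAT10 peaks lay outside the principal transcripts.

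On ANXA5 the lists differed most in extent. In shCtrl cells it had 1 peak with 216 bases on the transcript, in exon 13 from the end of the coding sequence into the 3′ UTR, with a fold enrichment of 3.86, and 5.94% of the coding sequence was covered. In shNAT10 cells it had 4 peaks, over exons 2 to 6, exon 7, exons 8 to 12 and exon 13, with fold enrichments of 79.5, 21.1, 16.2 and 4.03, and 99.3% of the coding sequence was covered. The peaks in exon 13 shared 209 bases between the lines. ANXA5 was also the tested member called lower in RNA level. On ANXA11, which was not called (log2 fold change -0.18), the shNAT10 list likewise covered more of the coding sequence, 76.6% against 69.6%. With a single list per line, a link between RNA level and peak cover was not tested.

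On ANXA7, the member with the largest rise in RNA, the shNAT10 list alone held a peak, the 210-base peak shown above, with a fold enrichment of 3.50, which was at percentile 6.46 of that list. On ANXA4 the shCtrl list alone held peaks, 4 in number, over exons 2 to 4 with the end of the 5′ UTR, in exon 6, in exon 7 and in the 3′ UTR of exon 13. Their fold enrichments were 13.9, 22.5, 21.8 and 13.1, and they covered 34.2% of the coding sequence, including the first of its 3 loop sites.

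On ANXA1, peaks over exons 4 to 8 shared 448 bases between the lines, with fold enrichments of 14.1 in the shCtrl list and 12.7 in the shNAT10 list. A further peak over exons 11 and 12 was listed in both lines and reached deeper into the 3′ UTR in shNAT10 cells, with 229 bases there against 21 bases in shCtrl cells. The peak over exons 9 and 10 was listed in shCtrl cells alone, as was a 210-base peak off the principal transcript, and a 180-base peak with 5 bases in exon 3 was listed in shNAT10 cells alone. The coding sequence was covered to 60.1% in shCtrl and 52.0% in shNAT10 cells.

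On ANXA6, the shNAT10 list held 1 peak of 990 bases over exons 15 to 26, with a fold enrichment of 630.0. It took in 903 bases of the back part of the coding sequence and 87 bases of the 3′ UTR. The shCtrl list held 3 peaks, of which the peaks over exons 17 to 19 and exons 20 to 26 lay wholly inside the shNAT10 peak, while the peak over exons 5 to 7 had no counterpart. The coding sequence was covered to 46.7% in shCtrl and 44.7% in shNAT10 cells, and each list covered 3 of its 4 loop sites, of which 2 were the same.

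On ANXA11, 5 shCtrl and 7 shNAT10 peaks covered 69.6% and 76.6% of the coding sequence, and both loop sites lay in peaks of both lines. The shCtrl peak in exon 2 lay in the 5′ UTR and was listed in shCtrl cells alone, with a fold enrichment of 155. The peak near the far end of the 3′ UTR, 211 bases in exon 17, was listed in shNAT10 cells alone, with a fold enrichment of 1730, at percentile 95.5 of that list. On ANXA8 the shCtrl peak of 180 bases had 66 bases on the principal transcript, over exons 2 and 3, and a fold enrichment of 241, and all 150 of its 31-base windows also occurred in ANXA8L1, so these copies cannot be told apart by this peak.

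**Figure D3:**
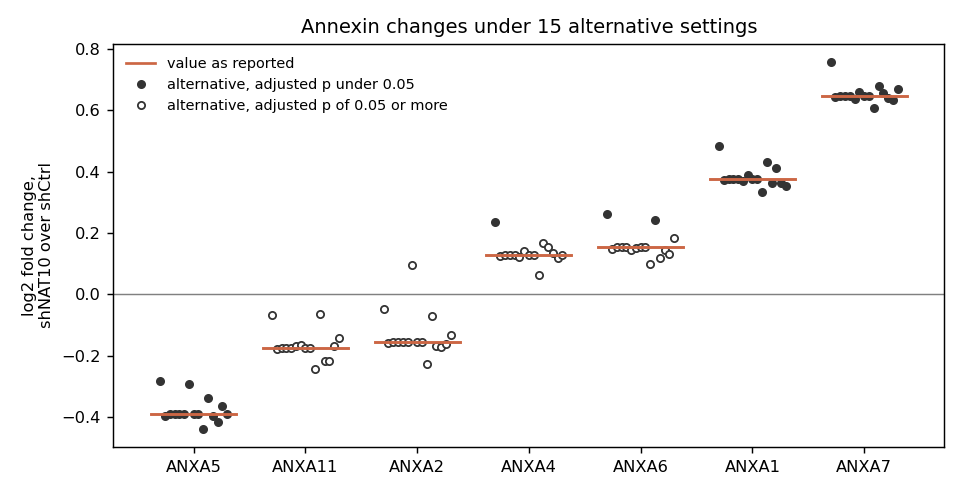
Log2 fold change of shNAT10 over shCtrl cells for the 7 tested annexins, with a line at the reported value and a circle for each of 15 alternative settings, filled where the adjusted p was under 0.05. The circles of ANXA1, ANXA5 and ANXA7 are all filled, that of ANXA4 is filled for TPM and those of ANXA6 for TPM and without shCtrl replicate 2, and ANXA2 crosses 0 with quantile normalization.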

How the data were processed

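RNA-seq of 3 shCtrl and 3 shNAT10 libraries and acRIP-seq peak lists of the same lines were analysed, with samples grouped by their labels. The authors deposited FPKM values per Ensembl gene, under a name that includes HTSeq, scaled by gene length and library reads. The submitters' processing notes name HISAT2 2, HTSeq 0.11.0 and DESeq2 1.22.2, without saying in which step. The deposited peak lists, 1 per group, give the fold enrichment of IP over input, a p-value per peak, in a column named score, and its base-10 logarithm from the authors' peak caller, whose name and annotation are not given in the sources used here. The logarithm was used only to rank peaks.

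Genes with at least 1 FPKM in at least 3 libraries (12982) entered a limma fit (version 3.58.1, R 4.3.3) of log2(FPKM + 0.1) that used a trend of variance on level, and p-values were adjusted by Benjamini-Hochberg. A fold change on this scale understates the change of low genes. Whole reads were recovered from the FPKM steps for all 12982 tested genes, within 0.005 of a read, and entered limma voom as an alternative chosen after seeing the data. Depth was 15831720 to 23521762 reads per library, and that of acRIP-seq is unknown. Single genes were tested by exact permutation in SciPy 1.17.1. Peaks were placed on the APPRIS principal transcript of each gene (ties to the longest) in GENCODE v29 on GRCh38, the build in the submitters' notes, and positions are counted from 1. Figures were drawn with matplotlib 3.10.9 under Python 3.11.15. The fitting and overlap steps were tested on simulated data. The fit was simulated with the spread of the shNAT10 libraries and with changes larger than those of the annexins. It therefore does not show how the fit handles smaller changes or the wider spread of the shCtrl libraries.

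Alternatives were TPM, median centring, quantile normalization, a pseudocount of 1, a minimum of 5 FPKM or no filter, no trend, a replicate block, each library left out, the top 50% of peaks by fold or p-value, and a reciprocal overlap of at least 50%. The text names all 10 members, their copies and relatives, NAT10, S100A10, S100A11 and S100A6, and the 3 largest called rises and falls of the partner and repair lists. EHD2, MYOF and VPS4A, the partners not called and the loop motif were chosen after their values were seen. The members and lists were chosen with earlier results of these data known. A marker gene is not reported here.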

Additional observations from a re-analysis of the deposited data

How the results depend on the processing

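ANXA1, ANXA5 and ANXA7 kept their direction and call under all 15 alternatives, with log2 fold changes of 0.33 to 0.48, -0.44 to -0.28 and 0.61 to 0.76, and NAT10 likewise (-1.88 to -1.74). The number of annexins called higher rose from 2 to 4 with TPM, which added ANXA4 and ANXA6, and the number called lower was 1 under every alternative. TPM moved the median log2 fold change of all tested genes by 0.11, and 61.8% of called genes were then higher, against 49.5% with FPKM. Relative to that median, ANXA4 was at 0.14 and ANXA6 at 0.17 with TPM, and at 0.14 and 0.16 with FPKM. Quantile normalization turned ANXA2 to 0.10, the cause of which was not tested.

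Of the partners, 2 rather than 4 were called lower with no filter, which tests more genes. Of the repair genes, 2 rather than 4 were called higher without the mean-variance trend and 2 with the replicate block. The replicate numbers were not taken to pair the libraries, since same-numbered libraries deviated together with correlations of -0.043, 0.064 and 0.11. With the block 2524 genes were called higher and 2603 lower, against 2699 and 2751, and it changed no annexin call. With each library left out in turn, partners called higher numbered 0 to 1 and lower 2 to 4, and repair genes called higher 2 to 6 and lower 1 to 5. Of the peaks, 3 rather than 5 annexins had a shNAT10 peak among the 50% with the highest fold enrichment, where 2 rather than 9 shCtrl peaks overlapped, and 4 overlapped reciprocally by 50%. Leaving out 1 library leaves an arm of 2, and the 3 libraries per group and the single list per line limit what can be told.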
